A study of Mus musculus with 2 samples.

Results

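Voltage-gated sodium, calcium and potassium channels were examined in embryonic C57BL/6 mouse brain at E18.5. The genotype was a Ctcf homozygous mutation, in which the zinc finger protein CTCF carries the R567W substitution made by CRISPR/Cas9 editing. The genes were taken by name as those coding for the pore-forming subunits (Scn, Cacna1, and Kcna, Kcnb, Kcnc, Kcnd, Kcnh and Kcnq), which gave 50 of the 32285 genes in the count matrix. SPARC-seq had produced 1 RNA library and 1 chromatin accessibility library on the same barcodes. Every spot carries the same mutant genotype, wild-type tissue was not analysed here, and with 1 library per assay all comparisons below are between groups of spots within the same libraries, without a test, and the intervals cover counting error only. The labels do not say how many embryos the tissue came from.

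A voltage-gated channel opens its pore when the membrane potential changes. Sodium channels (Nav) carry the upstroke of the action potential, calcium channels (Cav) turn depolarization into calcium entry for secretion, transcription and contraction, and potassium channels (Kv) repolarize the cell. Neurons and skeletal muscle use different members of these families: Scn1a, Scn2a, Scn3a and Scn8a are the sodium channels of the central nervous system, whereas Scn4a is that of skeletal muscle, and Cacna1s is the L-type channel that acts as the voltage sensor of muscle contraction.

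The tissue was labelled as brain, and 12 of 12 pan-neuronal marker genes were detected, but transcripts of skeletal muscle were present too. Spots were ranked by the share of their unique molecular identifiers (UMIs, counted RNA molecules) in 12 sarcomere and creatine kinase genes such as Myh3, Myh8 and Ttn, none of which is a channel. The highest 10% formed 199 muscle-rich spots with 987314 UMIs, and the other 1793 spots held 7723818 UMIs. The muscle-rich spots took from 1.01% to 4.91% of their UMIs from the 12 genes, and the spots just below the limit took 1.01% as well. Of the muscle-rich spots, 192 lay in 6 of the 48 strips defined by the second barcode segment among the spots kept. These 6 strips held 279 kept spots, so barcode strip and muscle share cannot be told apart in the comparisons below. The barcodes shared by both assays numbered 1993, and the median spot held 4157 UMIs and 21705 fragments. Muscle-rich spots were deeper, with a median of 4715 UMIs and 37285 fragments against 4076 and 20914. Levels are therefore given as CPM, the count of a gene scaled to the same total in each group, and differences as the ratio of CPM in muscle-rich over other spots. The 12 muscle genes were at 17063 CPM in muscle-rich and 4801 CPM in other spots, a ratio of 3.55 through the ranking. The other spots were not free of muscle RNA, with 37084 UMIs of these genes against 16847 in the muscle-rich spots. A spot can hold several cells, so fewer cells of a type and less RNA per cell cannot be told apart.

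Regulatory sequences are shown for the muscle isoforms, whose accessibility the comparison addressed, for the lowest peak of all (Cacna1a), and for a pair of neighbouring Cacna1g peaks with opposite ratios. The letters CAGCTG, an E-box core of the kind bound by myogenic factors, are in capitals where found (both strands, a palindrome counted once). The promoter is from RefSeq on GRCm38.p6, from 250 bases before to 50 bases after the transcription start, and the peak stretches are up to 300 bases of the deposited peaks, read on the plus strand of the same build.
Cacna1s promoter, chr1:136052561-136052860, plus strand: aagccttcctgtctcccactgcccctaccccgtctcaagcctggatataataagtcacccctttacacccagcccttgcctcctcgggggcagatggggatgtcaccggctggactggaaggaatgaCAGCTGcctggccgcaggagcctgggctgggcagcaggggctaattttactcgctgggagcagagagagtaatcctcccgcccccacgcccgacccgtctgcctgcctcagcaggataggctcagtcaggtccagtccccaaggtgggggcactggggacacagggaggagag
Scn4a peak 1.78 kb upstream of the start, chr11:106351023-106351322: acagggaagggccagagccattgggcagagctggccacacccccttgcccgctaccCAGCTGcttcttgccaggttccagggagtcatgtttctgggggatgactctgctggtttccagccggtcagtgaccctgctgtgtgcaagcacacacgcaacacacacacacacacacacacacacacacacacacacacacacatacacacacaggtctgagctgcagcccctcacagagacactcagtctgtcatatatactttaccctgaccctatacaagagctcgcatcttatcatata
Cacna1g peak 4.10 kb into the gene, chr11:94469704-94470003: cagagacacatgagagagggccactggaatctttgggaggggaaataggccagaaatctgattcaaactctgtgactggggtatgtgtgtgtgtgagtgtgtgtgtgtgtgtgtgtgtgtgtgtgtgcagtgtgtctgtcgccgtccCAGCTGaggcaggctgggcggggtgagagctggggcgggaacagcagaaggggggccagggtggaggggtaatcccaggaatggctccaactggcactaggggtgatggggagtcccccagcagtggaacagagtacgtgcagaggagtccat
Cacna1g peak 5.24 kb into the gene, chr11:94468709-94469008: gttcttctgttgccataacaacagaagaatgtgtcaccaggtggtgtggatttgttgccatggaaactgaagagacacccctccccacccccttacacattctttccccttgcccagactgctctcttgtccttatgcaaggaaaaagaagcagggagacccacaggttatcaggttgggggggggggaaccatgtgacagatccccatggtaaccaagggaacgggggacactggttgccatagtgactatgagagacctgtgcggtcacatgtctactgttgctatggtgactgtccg
Cacna1a peak 79.5 kb into the gene, chr8:84494709-84495008: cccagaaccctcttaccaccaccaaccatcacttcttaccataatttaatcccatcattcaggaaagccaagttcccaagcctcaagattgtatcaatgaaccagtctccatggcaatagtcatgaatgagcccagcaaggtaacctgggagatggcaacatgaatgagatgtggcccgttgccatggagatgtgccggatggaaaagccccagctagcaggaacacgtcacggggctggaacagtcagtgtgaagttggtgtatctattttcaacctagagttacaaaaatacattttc

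The CAGCTG letters were found in the Cacna1s promoter 1 time, and the Scn4a stretch holds 1 of the 2 matches of its peak. The first Cacna1g stretch holds 1, and the Cacna1a stretch and the second Cacna1g stretch hold none. The peak with the highest ratio, at Kcnq5 (18 and 34 cut sites, 2.60, 1.38 to 4.74), holds none either. Such a match is common, since 143 of the 299 peaks at channel genes (47.8%) and 45.4% of all 91150 peaks hold 1 or more. Among the RefSeq promoters, 35 channel genes were represented by 44 windows, of which 13 (29.5%) held CAGCTG, compared with 16.3% of all 32851 windows. Of these 13, 4 are alternative starts of Kcnc2, 3 of which overlap. No channel promoter held a match to the MEF2 site, found in 3.19% of all windows, or to RE1, found in 0.0639%.

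RE1 is the element bound by REST, a repressor of neuronal genes outside neurons. It was searched by its consensus of 17 letters in all peaks that overlap a channel gene or the 2 kb before it. Matches were found in 4 of these 299 peaks (1.34%) and in 229 of 91150 peaks overall (0.251%). They are shown with 10 flanking bases, on the strand of the match, with the element in capitals.
Kcnh4, chr11:100759001-100759037, minus strand: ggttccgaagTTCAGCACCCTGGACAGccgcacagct
Cacna1d, chr14:30049506-30049542, plus strand: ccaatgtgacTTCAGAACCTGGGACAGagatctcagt
Cacna1b, chr2:24762073-24762109, plus strand: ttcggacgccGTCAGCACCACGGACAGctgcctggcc
Scn10a, chr9:119706892-119706928, minus strand: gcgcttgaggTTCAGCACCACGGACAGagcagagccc

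Both ends of a fragment can be counted as cut sites, so the intervals given for peaks treat paired counts as separate and can be too narrow. The peak with the Kcnh4 element had 12 cut sites in muscle-rich and 122 in other spots, a ratio of 0.484 (0.243 to 0.876). That of Cacna1b had 28 and 269, a ratio of 0.512 (0.334 to 0.757). The Cacna1d peak, with 15 and 88, gave 0.839 (0.450 to 1.46), and the interval includes 1. The Scn10a peak went the other way, with 39 and 121 cut sites and a ratio of 1.59 (1.08 to 2.29). RNA of Rest itself was 33.4 CPM in muscle-rich and 15.3 CPM in other spots, a ratio of 2.19 (1.44 to 3.24). Promoter fragments of Rest gave 1.11 (0.783 to 1.54). Among the corepressor genes, RNA of Rcor1 was at 1.35 (1.09 to 1.66), Rcor2 at 0.884 (0.570 to 1.32) and Sin3a at 1.02 (0.706 to 1.44). The part of Rest in the peak and channel values was not tested.

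Across all kept spots, channel RNA was unevenly spread over the families. Each gene was set against its exon length, the total of its annotated exons, because UMIs followed length (Spearman's rho 0.694 with exon length and 0.723 with gene span, across 50 genes, which are not independent replicates). The order below holds for exon length, and an order by gene span, which can differ, is not given. Kcnd2, the A-type potassium channel of dendrites, was the highest at 162 CPM per kb of exon, from 836 CPM in total, and had at least 1 UMI in 1864 of 1992 spots. Kcnq5, a subunit of the neuronal M-current, followed at 49.5 CPM per kb. Next came the presynaptic calcium channels Cacna1a (36.4) and Cacna1b (33.5), the L-type channel Cacna1c (31.1) and the delayed rectifier Kcnb2 (30.2 CPM per kb). Among sodium channels the order was Scn3a (11.6), Scn8a (11.1), Scn2a (9.14), Scn9a (6.47) and Scn1a (5.74 CPM per kb). Scn3a, known as the fetal brain sodium channel, was at 145 CPM (137 to 153), Scn8a at 175 CPM (166 to 184), Scn2a at 116 CPM (109 to 124) and Scn1a at 63.9 CPM (58.7 to 69.5).

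The muscle isoforms were near the bottom of that order. Cacna1s reached 11.0 CPM (8.93 to 13.5) and Scn4a 3.90 CPM (2.70 to 5.45), that is 1.68 and 0.554 CPM per kb of exon. There were 11 genes with fewer than 50 UMIs, namely Scn4a, Scn7a, Scn10a, Scn11a, Cacna1f, Kcna1, Kcna3, Kcna5, Kcna7, Kcna10 and Kcnh6, which ranged from 1 UMI (Kcna10) to 49 UMIs (Kcna1). The sensory neuron channels Scn10a and Scn11a, the retinal L-type channel Cacna1f and the sodium-sensing channel Scn7a were thus close to the limit of detection in this tissue, whereas Scn9a, also named for sensory neurons, had 720 UMIs.

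The first question was whether RNA of the muscle isoforms rose where muscle RNA was rich. Scn4a had 7 UMIs in 7 muscle-rich spots (7.09 CPM) and 27 UMIs in the others (3.50 CPM), a ratio of 2.03 with an interval of 0.746 to 4.77. Cacna1s had 15 UMIs in 15 muscle-rich spots (15.2 CPM) and 81 in the others (10.5 CPM), a ratio of 1.45 (0.775 to 2.53). Both ratios pointed up, but each interval includes 1. Together the pair gave 22 and 108 UMIs and a ratio of 1.59 (0.959 to 2.54). The muscle potassium channel Kcna7 had 3 UMIs, none of them in a muscle-rich spot, and no fold can be given.

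The genes that work with Cacna1s at the junction of the cell membrane and the calcium store were compared in the same way, and summed to a ratio of 1.85 (1.75 to 1.96), inside the Cacna1s interval. Of the 14 excitation-contraction partners, 13 had at least 50 UMIs, and 7 of these were at least 2-fold higher in muscle-rich spots and none 2-fold lower. Across all 12944 genes with that many UMIs, 4.36% were 2-fold higher. The 7 were Sypl2, a membrane protein of the junction (4.97, interval 3.61 to 6.80), Cacng1, the gamma subunit of the muscle calcium channel (3.63, 2.42 to 5.37), the calcium pump Atp2a1 (3.50, 3.06 to 4.0), the store proteins Casq1 (3.49, 2.70 to 4.46) and Casq2 (3.22, 2.69 to 3.84), and the junction proteins Trdn (3.44, 2.75 to 4.28) and Jph2 (3.34, 2.35 to 4.69). The upper end of the Cacna1s interval, 2.53, lies below the lower ends for Sypl2, Atp2a1, Casq1, Casq2 and Trdn. Those 5 are among the genes picked for passing 2-fold in this same comparison, so the contrast does not place Cacna1s below its partners as a group. Jph1 was at 1.99 (1.41 to 2.76). The release channel Ryr1, which Cacna1s contacts directly, was at 1.85 (1.55 to 2.20), and Cacnb1, the beta subunit of the muscle channel, at 1.34 (1.08 to 1.65). The partners were not uniform, since the calcium pump Atp2a2 was at 0.948 (0.779 to 1.14), the adaptor Stac3 at 1.04 (0.454 to 2.08) and the release channel Ryr3, which neurons also make, at 0.786 (0.672 to 0.914). Of 12 muscle differentiation genes outside the ranking list, 6 had at least 50 UMIs and 5 of these were 2-fold higher, with a sum over the 12 of 2.49 (2.36 to 2.63). Des was at 3.40 (3.12 to 3.69) and Myog at 3.38 (1.86 to 5.91), the gene not past 2-fold was Mef2c at 1.34 (1.20 to 1.48), and Myf6 had 7 UMIs, none of them in a muscle-rich spot.

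**Figure D1:**
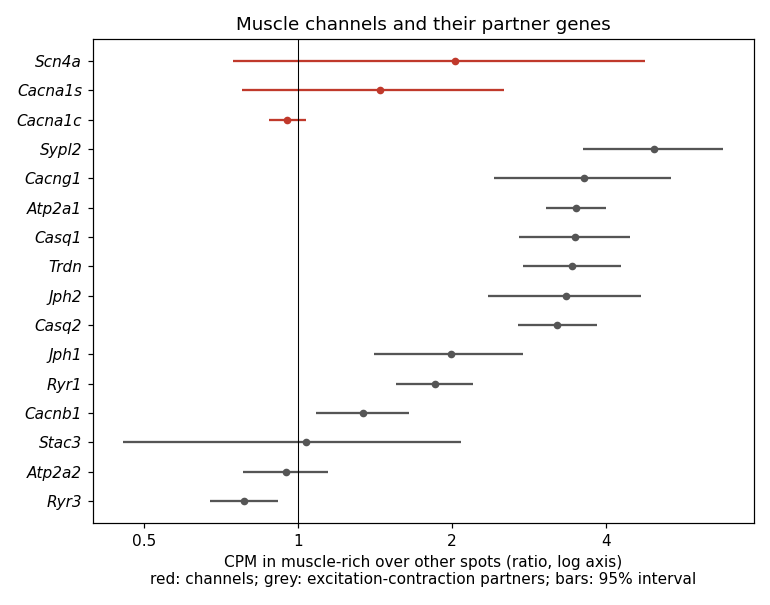
RNA ratio in muscle-rich over other spots (log axis) for 3 channel genes (red) and the 13 excitation-contraction partners with at least 50 UMIs (grey), where points are the ratio of CPM and bars the 95% interval for counting error. Sypl2, Cacng1, Atp2a1, Casq1, Trdn, Jph2 and Casq2 lie above 3, and the wide bars of Scn4a (0.746 to 4.77) and Cacna1s (0.775 to 2.53) span 1.

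Neuronal sodium channel RNA was lower in muscle-rich spots. Scn1a, Scn2a, Scn3a and Scn8a together gave 383 CPM in muscle-rich and 515 CPM in other spots, a ratio of 0.744 (0.668 to 0.827). Scn3a had the lowest ratio, from 151 to 91.2 CPM (0.602, 0.480 to 0.746), followed by Scn2a, from 121 to 81.0 CPM (0.670, 0.526 to 0.843), and Scn1a (0.704, 0.509 to 0.953). Scn8a differed least, at 176 and 164 CPM, a ratio of 0.933 (0.787 to 1.10) whose interval includes 1 and does not overlap that of Scn3a. The 12 pan-neuronal markers, all of them detected, summed to 4102 CPM in muscle-rich and 5955 CPM in other spots, a ratio of 0.689 (0.667 to 0.711). Fibroblast markers (8 of 8 detected) were at 3253 CPM in muscle-rich and 1348 CPM in other spots, Schwann cell markers (8 of 8) at 103 and 54.9 CPM, and epithelial markers (8 of 8) at 528 and 213 CPM, and the part of these cells in the channel values was not tested.

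Most calcium and potassium channels of neurons had ratios below 1 too. The presynaptic Cav2 genes Cacna1a, Cacna1b and Cacna1e together gave 869 and 1118 CPM, a ratio of 0.777 (0.724 to 0.834), with Cacna1e lowest at 0.717 (0.628 to 0.817). The L-type group came to 0.923 (0.858 to 0.992). Within it, Cacna1c, which smooth and heart muscle also use, had a ratio of 0.953 (0.876 to 1.04), against 0.815 (0.698 to 0.947) for Cacna1d. The T-type genes Cacna1g, Cacna1h and Cacna1i, which open near rest, gave 0.827 (0.710 to 0.958). Among potassium channels, the fast-spiking Kv3 group was lowest at 0.719 (0.629 to 0.818), Kv1 was at 0.754 (0.601 to 0.936), Kv4 at 0.811 (0.755 to 0.869), the Kcnh genes at 0.809 (0.733 to 0.891), Kv2 at 0.847 (0.767 to 0.934) and the Kcnq genes at 0.864 (0.803 to 0.928). Kcnc2 stood at 0.662 (0.515 to 0.840) and Kcnh7, an ERG channel of neurons, at 0.711 (0.623 to 0.809). Kcnq1, Kcnh2 and Kcnd1 had ratios from 1.25 to 1.34, all with intervals that include 1. Kcnd2, the gene with most channel RNA, was at 695 CPM in muscle-rich and 854 CPM in other spots (0.814, 0.751 to 0.88). Kcnh8 was at 1.08, with an interval that includes 1. Ratios of the remaining genes reported by name with at least 50 UMIs ran from 0.685 (Kcnc4) to 0.978 (Kcnh4), all below 1, and the intervals of Kcnb2, Kcnc1, Kcnd3 and Kcnq3 lay below 1. Kcnq1 overlaps the antisense transcript Kcnq1ot1, which was itself at 1.17 (1.03 to 1.32) with 2375 UMIs, and reads of the pair cannot be told apart unless strand was used in counting, which is not given in the sources used here.

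Of the 39 channel genes with at least 50 UMIs, none was 2-fold higher in muscle-rich spots and 1 was 2-fold lower, where 4.36% and 2.78% of all genes were. That gene was Kcna4, an A-type channel of axons, with 2 UMIs in muscle-rich and 61 in other spots (0.256, 0.0304 to 0.967). With the cluster led by Myh3 in place of the muscle-rich spots the Kcna4 ratio was 0.705 (0.271 to 1.55) and no gene was 2-fold lower. The ratio was below 1 for 32 of the 39 genes and for 54.1% of all genes. The median ratio was 0.815 for these channel genes and 0.971 for all genes. All 50 summed to 5381 CPM in muscle-rich and 6540 CPM in other spots, a ratio of 0.823 (0.800 to 0.846).

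**Figure D2:**
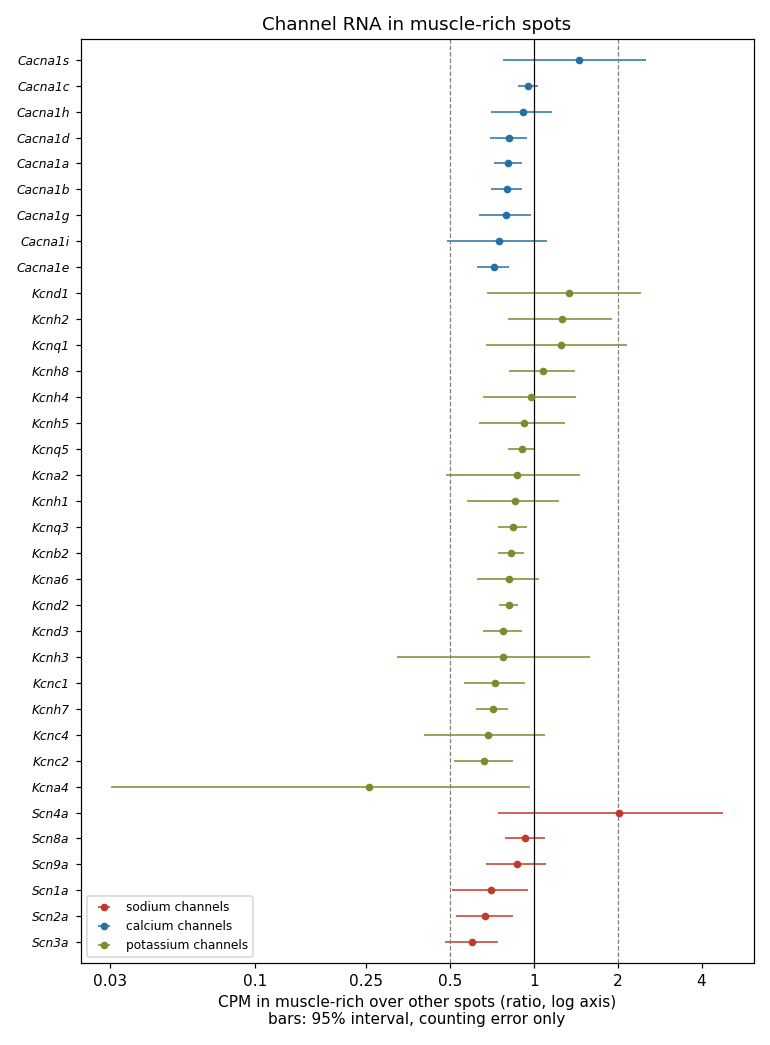
Ratio of CPM in muscle-rich over other spots (log axis) for 34 of the 39 channel genes with at least 50 UMIs and Scn4a, coloured by family, where bars are 95% intervals for counting error and dashed lines mark 2-fold. Most points sit left of 1, Kcna4 (0.256) is the only one past 2-fold down among genes with at least 50 UMIs, and Scn4a (2.03) rests on 34 UMIs.

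The auxiliary subunits were counted in the same way, against 4.36% of all genes 2-fold higher and 2.78% 2-fold lower. Of the sodium channel partners (beta subunits, intracellular FGFs and ankyrins) 9 had at least 50 UMIs and none passed 2-fold, with a summed ratio of 0.822 (0.794 to 0.851). Scn3b was at 0.721 (0.579 to 0.888). Of 15 calcium channel subunits with enough UMIs, Cacng1 was the only one 2-fold higher and Cacng5 the only one 2-fold lower (0.283, 0.0572 to 0.855). Of 11 potassium channel subunits, 2 were 2-fold lower, the silent subunit Kcns2 (0.153, 0.00381 to 0.894, on 52 UMIs) and Kcnip2, a Kv4 partner (0.389, 0.165 to 0.784). The median ratios of the 3 lists were 0.816, 0.842 and 0.802. Kcne5 of the potassium list was not analysed here.

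Accessibility was then compared at the promoters, as fragments within 1 kb of the transcription start scaled to the promoter fragments of all genes (promoter CPM). The muscle isoforms, summed, had more promoter fragments in muscle-rich spots, but the interval of Cacna1s alone included 1 and that of Scn4a reached 1.0. Scn4a had 21 fragments in muscle-rich spots (19.8 promoter CPM) and 58 in the others (11.4 promoter CPM), a ratio of 1.74 (1.0 to 2.91). Cacna1s had 22 (20.7 promoter CPM) and 63 (12.4 promoter CPM), a ratio of 1.68 (0.983 to 2.76). The pair together gave 1.71 (1.18 to 2.44), an interval above 1, but with a window of 500 bp the ratio was 1.61 (0.973 to 2.59) and the interval includes 1. Kcna7, with 18 and 29 fragments, was at 2.98 (1.56 to 5.55), the highest ratio of any channel promoter, although with 47 fragments it fell under the limit of 50 and no RNA was seen in the muscle-rich spots. The 12 muscle genes that ranked the spots gave 1.55 (1.34 to 1.80) over their promoters. Muscle differentiation genes outside the ranking list gave 1.63 (1.40 to 1.89) over their promoters, and the excitation-contraction partners 1.27 (1.15 to 1.41), with 2 of 13 promoters 2-fold higher, where 2.16% of all 22016 promoters were. Lists of other cells ran from 0.411 for pan-neuronal to 2.30 (2.03 to 2.61) for fibroblast markers, with mural cells (pericytes and smooth muscle) at 1.61 (1.40 to 1.85). Their part in the muscle isoform values was not tested.

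Promoter windows of the neuronal sodium channels were lower by more than their RNA, though only Scn3a had a peak at its start. The nearest peak centre lay 2.64 kb from the start for Scn8a, 32.0 kb for Scn2a and 58.9 kb upstream for Scn1a. Scn1a, Scn2a, Scn3a and Scn8a gave 25 fragments in muscle-rich and 306 in other spots, a ratio of 0.392 (0.25 to 0.590), whose upper end lies below the RNA interval of the same genes (0.668 to 0.827). Scn2a had no fragment in its window in the muscle-rich spots and 45 (8.83 promoter CPM) in the others. With 3 fragments set in place of 0, a floor and not a bound from counting error, it was 3.12-fold lower. The Scn2a peak 47.8 kb into the gene had 28 and 339 cut sites, a ratio of 0.406 (0.266 to 0.598). Its peaks at 32.0 and 34.8 kb were at 0.881 and 1.07, with intervals that include 1. Scn3a had 5 and 54 fragments (0.445, 0.139 to 1.10), and Scn8a 19 and 185 (0.493, 0.290 to 0.792). The pan-neuronal markers showed the same contrast between layers, with 0.411 (0.359 to 0.469) at the promoter against 0.689 in RNA.

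At least 50 promoter fragments were counted for 43 channel genes. None was 2-fold higher, where 2.16% of all 22016 promoters were, and 5 (11.6%) were 2-fold lower, where 5.25% of all were. Among the 5 were Kcnh8 (0.433, 0.211 to 0.802), Scn3a, Kcnh7 (0.474, 0.265 to 0.794) and Scn8a, and each of these 4 lost its call under at least 1 other setting. Cacna1b (0.523, 0.356 to 0.747) and Cacna1h (0.532, 0.366 to 0.752) stood just outside the limit. Kcnh8 differed between layers, since its RNA ratio was 1.08 (0.817 to 1.40), above the interval of its promoter. Kcnc1 (1.32), Cacna1g (1.29) and Kcnq5 (1.28) had promoter ratios above 1 with intervals that include 1. The median over the 43 promoters was 0.682, compared with 0.992 over all. The remaining 7 genes, Cacna1c, Cacna1d, Cacna1f, Kcna7, Scn1a, Scn2a and Scn7a, had between 23 and 48 promoter fragments. In 5 channel genes, Kcnd3, Kcnh8 and Kcnq3 among them, another gene starts within 1 kb, so those windows are shared. Across the 35 genes with enough counts in both layers, the RNA and promoter ratios had a Spearman's rho of 0.330, given as a description, since the genes share the same spots.

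**Figure D3:**
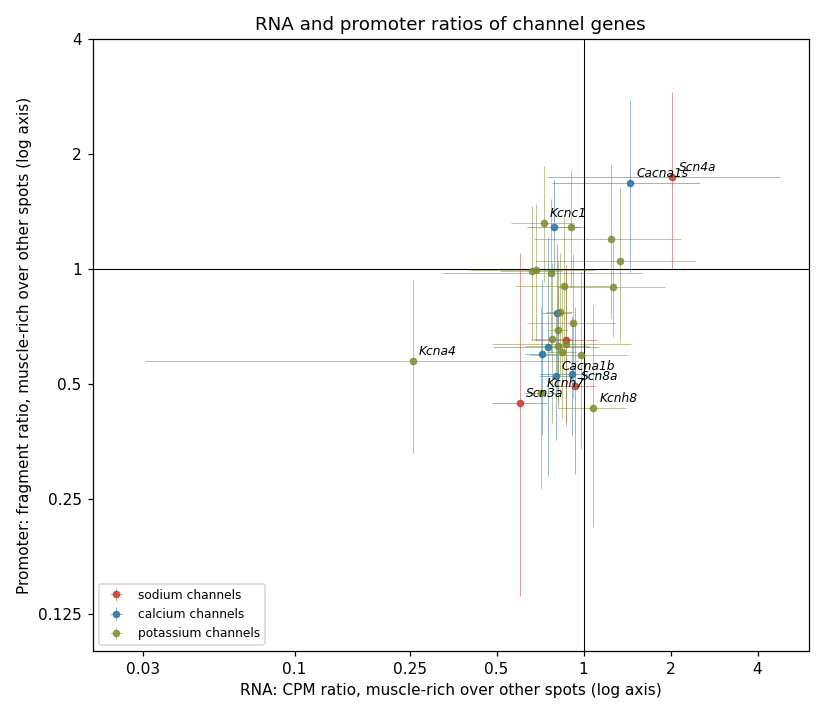
RNA ratio (horizontal) against promoter fragment ratio (vertical), both muscle-rich over other spots on log axes, for 30 of the 35 channel genes with at least 50 counts in each layer and Scn4a, where bars are 95% intervals for counting error. Scn4a and Cacna1s lie in the upper right, and Scn3a and Kcnh7 in the lower left.

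The kept spots were also ordered by muscle share and divided into 5 bins of 398 or 399 spots. Scn1a, Scn2a, Scn3a and Scn8a together were at 528, 511, 551 and 499 CPM in bins 1 to 4 and at 413 CPM (384 to 443) in the last. Their promoters were at 65.1, 73.0, 62.9 and 63.1 CPM in bins 1 to 4 and at 24.3 (17.6 to 32.6) in the last. The lower values were thus in the bin with most muscle RNA, and the intervals of the other 4 bins overlap. The pan-neuronal markers went from 5828 CPM in bin 4 to 4443 CPM in bin 5, and their part in the sodium channel values was not tested. The muscle isoforms were at 14.1, 13.1, 15.2, 13.4 and 18.6 CPM, and at 23.6, 30.3, 17.6, 23.2 and 33.6 promoter CPM, with overlapping intervals in each layer. The Scn4a promoter was highest in bin 2 (20.5, 13.0 to 30.7), against 14.9 (9.81 to 21.7) in bin 5. That of Cacna1s was highest in bin 5 (18.8, 13.0 to 26.2).

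**Figure D4:**
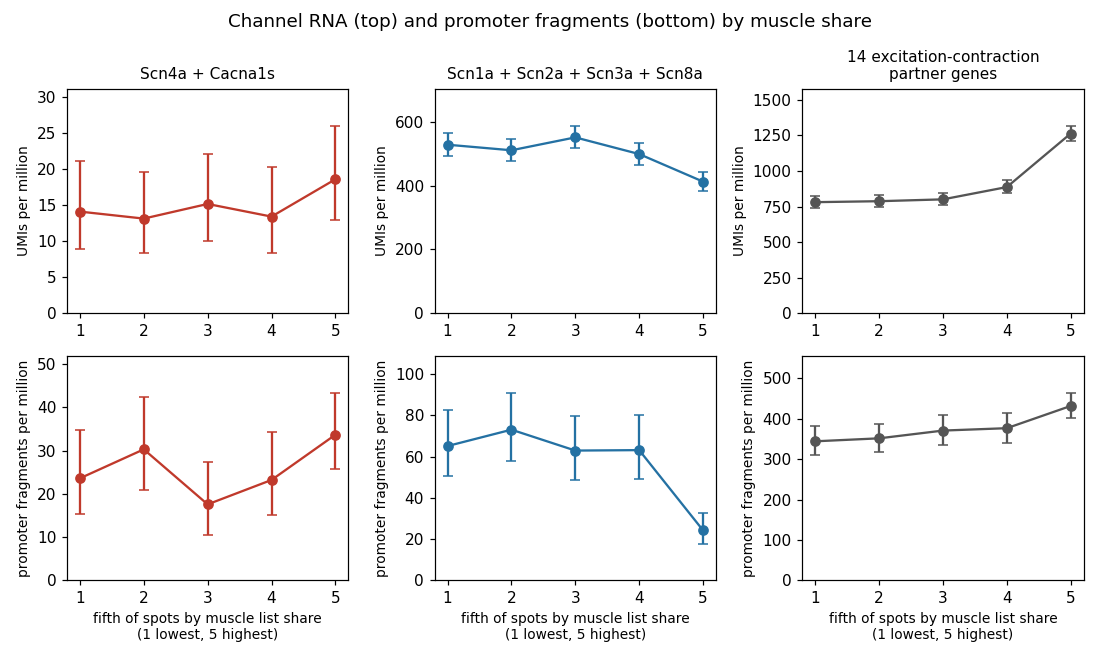
Level of RNA (top, CPM of UMIs) and promoter accessibility (bottom, fragments scaled to the promoter fragments of all genes, as CPM) in 5 bins of the 1992 kept spots by muscle share, for Scn4a with Cacna1s, for the 4 central nervous system sodium channels and for the 14 excitation-contraction partners, with 95% Poisson bars. The neuronal sodium channel promoters stay between 62.9 and 73.0 over 4 bins and are at 24.3 in the last.

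Peaks showed what the promoter windows did not. Of 287 peaks at channel genes with at least 50 cut sites, 11 (3.83%) were 2-fold higher in muscle-rich spots and 71 (24.7%) 2-fold lower, where 7.49% and 16.0% of all 85932 peaks were. The 11 higher peaks lay at Kcnq1 (6), Cacna1g (2), Scn4a, Cacna1d and Kcnq5 (1 each). Scn4a (chr11:106318592-106353288, minus strand) had its raised peak 1.78 kb upstream of the principal start and inside its annotated span, with 40 and 95 cut sites and a ratio of 2.07 (1.39 to 3.03); it is the peak whose CAGCTG is shown above. The other 2 Scn4a peaks, within the gene, were at 0.741 and 0.525, with intervals that include 1. Cacna1s (chr1:136052750-136119822) had 4 peaks between 3.04 and 36.9 kb into the gene, none at the start and none above 1, from 0.706 to 0.995.

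Kcnq1, the potassium channel of heart and epithelia (chr7:143106362-143427042), had 20 peaks along its span, of which 15 had ratios above 1 and 6 were 2-fold higher. Over all 85932 peaks, 54.7% had ratios below 1 and 7.49% were 2-fold higher. The strongest was at 2.46 (1.81 to 3.32), 269 kb into the gene. Kcnq1 RNA had 15 and 94 UMIs and a ratio of 1.25 (0.672 to 2.17), and the promoter was at 1.20 (0.742 to 1.88), both with intervals that include 1. Only 1 peak of Kcnq1 was 2-fold lower.

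Cacna1g, a T-type channel of thalamic neurons (chr11:94408391-94474198, minus strand), had peaks that moved in opposite directions. The peak 4.10 kb into the gene had 68 and 139 cut sites (2.41, 1.77 to 3.24), and its neighbour at 5.24 kb had 31 and 635 (0.240, 0.162 to 0.344). A peak at 45.6 kb was at 2.04 (1.60 to 2.59) and another at 60.7 kb at 0.313 (0.153 to 0.574). The peak at the start was at 1.24 (0.976 to 1.56), and RNA of the gene at 0.793 (0.636 to 0.979).

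Cacna1e had 10 of its 22 peaks 2-fold lower, Cacna1c 6 of 26, Cacna1a 5 of 15, Cacna1d 5 of 28, Kcnq3 4 of 9, Kcnd3 4 of 11 and Kcnh1 4 of 13. Over all 85932 peaks with at least 50 cut sites the share was 16.0%. The lowest ratio was at the Cacna1a peak shown above, with 2 cut sites in muscle-rich and 150 in other spots (0.0656, 0.00787 to 0.241). A peak 47.1 kb into Kcnq3 had 12 and 412 (0.143, 0.0734 to 0.253). At a transcription start, Scn3a was lowest, with 6 and 93 cut sites (0.317, 0.114 to 0.717). All 3 peaks of Kcnh8 were 2-fold lower, though the intervals of 2 of them include 1.

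**Figure D5:**
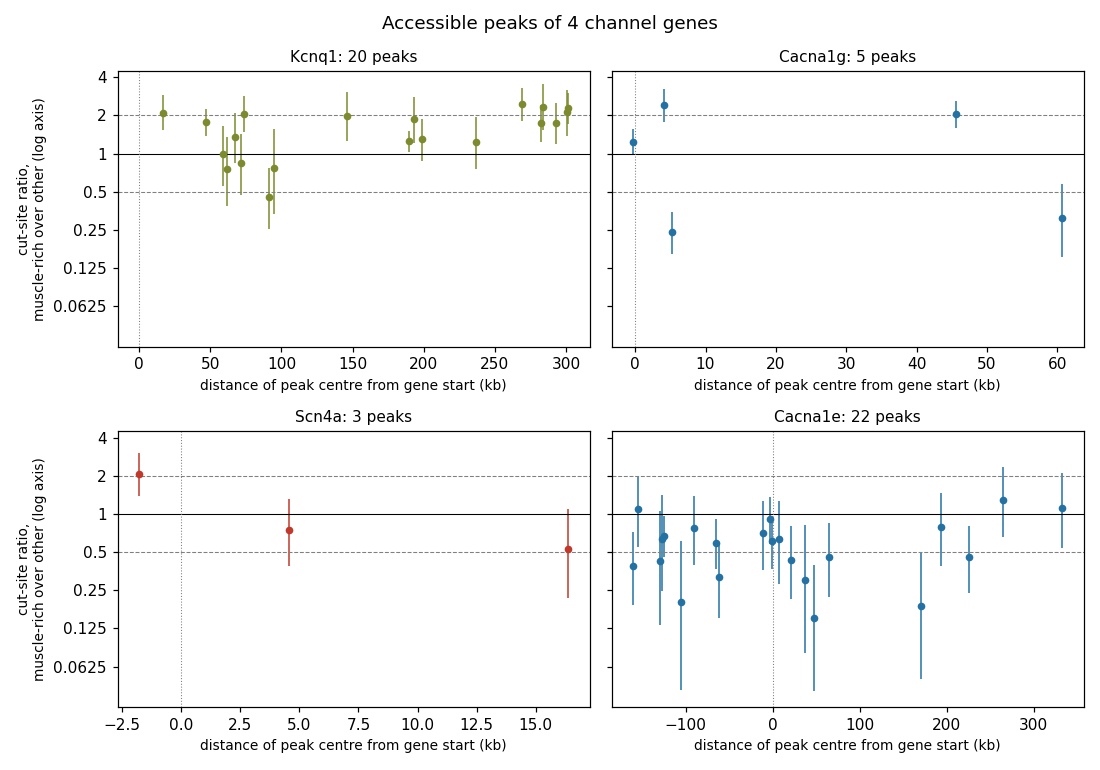
Ratio of cut sites in muscle-rich over other spots (log axis) for each peak with at least 50 cut sites at Kcnq1, Cacna1g, Scn4a and Cacna1e, against the distance of the peak's centre from the start of the principal transcript in kb (negative is upstream), with 95% bars for counting error and dashed lines at 2-fold. Kcnq1 peaks lie mostly above 1, Cacna1e peaks mostly below, and the Cacna1g peaks split between 2.41 and 0.240. Both ends of a fragment can count as cut sites, so the bars can be too narrow.

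Outside the muscle-rich spots, channel RNA was compared between the 25% of spots with most and the 25% with least pan-neuronal RNA, 448 spots each. The neuronal list differed by 1.93 between them through the ranking. Markers of several other cells were lower in the neuron-rich spots, with summed ratios of 0.235 for pituitary, 0.311 for epithelial, 0.498 for fibroblast, 0.696 for erythroid and 0.704 for microglial genes and 0.789 for the 12 muscle genes. Others were near 1, among them radial glia (0.939), cardiac (0.978), endothelial (1.01), mural (1.02) and oligodendrocyte precursor (1.06) genes. Sensory neuron genes were at 1.31 (0.968 to 1.77). The part of all these cells in the channel values was not tested. Scn1a, Scn2a, Scn3a and Scn8a together differed by 1.19 (1.09 to 1.31) in RNA and by 1.49 (1.06 to 2.10) at their promoters. Kcna6, a Kv1 channel of axons, had the highest ratio of the 34 channel genes with at least 50 UMIs there (1.47, 1.17 to 1.84), with Scn3a (1.28) and Scn2a (1.27) also above 1. None of the 34 was 2-fold higher or lower, where 0.127% and 1.24% of all genes were. Rest went the other way at 0.299 (0.143 to 0.581).

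Other spot classes were defined by pituitary hormones (199 spots, 13 of them also muscle-rich) and by epithelial genes (39 spots, 15 of them also muscle-rich). In pituitary-rich spots all channel genes together were at 6241 CPM (6051 to 6436), a ratio of 0.972 (0.941 to 1.0) over the rest of the kept spots. The T-type group was at 0.787 (0.651 to 0.945) and Kv1 at 0.746 (0.563 to 0.970), and the central sodium channels at 0.999 (0.890 to 1.12). Scn10a had a ratio of 4.11 (1.34 to 10.8) there, but on 24 UMIs in all. In epithelium-rich spots all channel genes were at 5123 CPM (4841 to 5418), a ratio of 0.795 (0.751 to 0.841), with the central sodium channels at 0.679 (0.539 to 0.844). The muscle isoforms differed from the rest in neither class beyond counting error, with 9 UMIs (0.918, 0.410 to 1.80) and 3 UMIs (0.835, 0.170 to 2.50).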

How the data were processed

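SPARC-seq RNA and accessibility libraries of 1 E18.5 brain sample were used. Per the file headers, the authors processed them with cellranger-arc 2.0.1 and an mm10 2020-A reference; the submitters' processing notes name mm10 and Seurat 4.0. The deposited values are raw counts, namely UMI counts for 32285 genes, cut-site counts for 91223 peaks over 1993 barcodes, and fragments with duplicates collapsed for 2500 barcodes. They were not normalised. Barcodes formed a grid of 50 by 50 segments of 8 bases and were read as spots, an inference from the barcodes; doublets were not called.

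Analysis was restricted to the 1992 spots (8711132 UMIs) in which 500 to 6000 genes were seen and mitochondrial transcripts took 20% or less. Counts were summed over spots. Ratios have conditional Clopper-Pearson 95% intervals and levels exact Poisson intervals, for counting error only. Those on cut sites can be too narrow, since both ends of a fragment can count. By insertions the muscle isoform promoter interval was 1.26 to 2.18, against 1.18 to 2.44 by fragments. No test was possible with 1 library per assay. A gene, promoter or peak was called past 2-fold with at least 50 counts. Promoter windows span 1 kb on each side of the start of GENCODE M21 principal transcripts. Motifs were searched on both strands. The code for ratios and intervals was checked on simulated counts with known ratios. Genes with at least 50 UMIs, Scn4a and Cacna1s are given with values or ranges, and genes of the partner lists are named where past 2-fold; others (such as Kcna7, Ryr1 and Scn3b) were named after their values were seen. The member genes, lists and rules were chosen with earlier results of these data known. Python 3.11.15, NumPy 2.4.6, SciPy 1.17.1 and scanpy 1.11.5 were used. Libraries of other assays were not used here, and a few members are not reported here by name, though sums and counts include them.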

Additional observations from a re-analysis of the deposited data

Results flagged for a closer look

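Fragments of 507 barcodes were deposited without RNA counts and took no part in the comparisons. These barcodes held 706 fragments at the promoters of the channel genes, or 1386 CPM when scaled to the promoter fragments of all genes, against 8665 fragments and 1408 CPM in the kept spots, a ratio of 0.985 (0.911 to 1.06). Of them, 33 lay at Scn1a, Scn2a, Scn3a and Scn8a and 24 at Scn4a and Cacna1s. They stand here because they lie in data outside the main measurement and above the limit that a count of 0 allows.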

How the results depend on the processing

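All summed ratios (muscle isoforms, central sodium channels, and all channel genes in 3 spot classes) stayed within the interval of their reported value and kept their direction under every alternative run. The muscle isoform RNA ratio ranged from 1.33 (highest 20% of spots) to 1.84 (highest 5%), and its promoter ratio from 1.42 (highest 20%) to 1.88 (highest 5%). The central sodium channels ranged from 0.714 to 0.789 in RNA and from 0.367 to 0.436 at promoters. Counts past 2-fold moved under some settings, and 12 of 94 alternative values moved by over 1.5 times, with none reversed. Genes 2-fold higher in RNA went from 0 to 1 with the highest 5% of spots and with a minimum of 20 counts (Scn4a). Genes 2-fold lower in RNA went from 1 to 2 with the highest 5% (Kcna4 and Kcnc4), to 5 with a minimum of 20 counts (Kcna1, Kcna4, Kcnh6, Scn7a and Scn11a), and to 0 with the highest 20%, with the cluster led by Myh3 or with a minimum of 100 counts. Scn7a was counted there with 0 UMIs in muscle-rich and 20 in other spots. With 3 counts as the floor (3.04 CPM, above its 2.59 CPM in other spots) no fold can be given for it. Promoters 2-fold higher went from 0 to 1 with the highest 5% (Cacna1s) and, through Kcna7, with a 2 kb window, with insertions or with a minimum of 20 counts. Promoters 2-fold lower ranged from 4 to 7 around 5, but not with the same genes: Scn3a lost its call with the highest 5%, a 2 kb window or a minimum of 100 counts, Kcnh7 with the highest 20% or a 2 kb window, Kcnh8 with the highest 20%, and Scn8a with a minimum of 2000 UMIs per spot, the cluster led by Myh3, a 500 bp window, insertions or scaling to all fragments. The interval of the muscle isoform promoter ratio included 1 with a 500 bp window (1.61, 0.973 to 2.59). Peaks 2-fold lower went from 71 to 43 with a minimum of 100 counts, which leaves fewer peaks; the peak alternatives and those of the spot classes were chosen after seeing the data. The other causes were not tested. No paired analysis was possible because each assay has 1 library. Depth limits the 11 genes under 50 UMIs most, and Scn4a and Cacna1s had 34 and 96 UMIs.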
